A study of Mus musculus with 4 samples.

Results

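Potassium channels outside the inward rectifier family were followed in cochleae of mice at postnatal day 10, in 2 wild-type and 2 Zbtb20 knockout libraries. Members were chosen by gene symbol: names that begin with Kcn, without the inward rectifiers (Kcnj) and without Kcnq1, Kcne1 and Kcne1l. The rule took 76 of the 20777 genes in the tables, of which 73 had a value. RNA from C57BL/6 cochleae was sequenced, and levels are FPKM, the fragments of a gene per kilobase of its transcript, corrected for the depth of the library, so levels of different genes can be set side by side per length. The genotype labels read Zbtb20 +/+,FoxG2-cre and Zbtb20 +/+,FoxG3-cre for wild-type replicates 2 and 3, and Zbtb20 F/F,FoxG2-cre and Zbtb20 F/F,FoxG3-cre for knockout replicates 2 and 3. All 4 libraries thus carry a Cre driver, and the name of the driver differs between the replicate numbers and not between the genotypes. The labels do not say whether the names stand for different Cre lines, and a numbering slip in the labels cannot be told from a true difference. The labels give neither the cells in which the driver acts nor the animals behind each library, and p-values therefore cover the spread among these 4 libraries, which may be technical. Where values are given as pairs, replicate 2 comes before replicate 3.

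Potassium channels let potassium leave a cell along its gradient and so set the resting potential and end action potentials. Voltage-gated members open when the cell depolarises, calcium-activated members open as calcium enters, and tandem-pore members carry a leak current at rest. In the cochlea, channels of hair cells and of spiral ganglion neurons shape the receptor potential and the timing of firing, and Kcna1 and Kcna2 lie beside the nodes of Ranvier of myelinated axons. By role, the members were 17 voltage-gated pore subunits of the Kcna to Kcnd families, 10 silent subunits that form channels only together with others, 4 Kcnq, 8 Kcnh, 8 calcium- or sodium-activated, 14 tandem-pore (Kcnk) and 14 auxiliary subunits, plus Kcnrg, a regulator of Kcna channels.

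The coding sequence, which the rule did not use, set the tandem-pore members and the members without a pore apart from all other classes. These classes are defined by their pores, so the counts below describe the classes and do not test them. The potassium selectivity filter is read from a short run of codons: threonine or serine, then valine, isoleucine, leucine or threonine, then glycine, then tyrosine, phenylalanine or leucine, then glycine. In the longest complete coding sequence of each member in GENCODE M21, 47 pore subunits held this run once, all 14 Kcnk members held it in 2 places, and the 14 auxiliary subunits and Kcnrg, 15 in all, held none. The filter regions of 5 members that differed between the genotypes are shown to set the single filter of Kcna channels beside the tandem filters of Kcnk channels. Each is 45 bases of coding sequence, 5′ to 3′, with the 15 bases of the run in capitals.
Kcna2 at chr3:107105209-107105253 of GRCm38, plus strand: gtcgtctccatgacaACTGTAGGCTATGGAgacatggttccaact
Kcna10 at chr3:107195300-107195344, plus strand: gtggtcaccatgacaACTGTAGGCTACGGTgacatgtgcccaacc
Kcna4 at chr2:107296480-107296524, plus strand: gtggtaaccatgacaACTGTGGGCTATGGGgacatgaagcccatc
Kcnk2, first filter: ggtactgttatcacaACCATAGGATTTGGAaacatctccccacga
Kcnk2, second filter: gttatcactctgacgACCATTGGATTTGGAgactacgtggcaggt
Kcnk5, first filter: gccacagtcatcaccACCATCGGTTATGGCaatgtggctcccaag
Kcnk5, second filter: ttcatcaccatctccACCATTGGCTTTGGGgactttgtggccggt
The stretches of Kcnk2 and Kcnk5 lie on the minus strand of chromosomes 1 and 14 and are joined across introns. In all 14 Kcnk members the first stretch crossed an intron, as it did in 8 of the other 47 members with a filter. Of the 8 Kcna members 7 had their whole coding sequence in 1 exon.

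Summed FPKM was 391808 to 405144 per library, and 12933 to 13008 genes lay above 1 FPKM. The steps between low values placed the depth near 17900000 to 19400000 fragments, at which 1 fragment on a transcript of 3000 bases is 0.0172 to 0.0186 FPKM. Zbtb20 itself was at 10.94 and 10.67 FPKM in wild-type and 7.35 and 7.41 FPKM in knockout libraries, a fall of 0.49 ± 0.08 on the log2 scale (SE, n = 2 per group; adjusted p = 0.0394, limma). Hair cell markers were present in every library, with summed FPKM of 10 genes from 200.3 to 244.9. Marker sums differed between libraries of the same genotype. Summed skeletal muscle markers were at 632.0 and 77.93 FPKM in wild-type replicates 2 and 3 and at 18.6 and 34.56 FPKM in knockout replicates 2 and 3. In wild-type replicate 3 and in both knockout libraries most of the sum was Pvalb, which neurons also express. Without Pvalb the remaining 11 genes reached 585.6 and 2.2 FPKM together in wild-type and 5.7 and 2.74 FPKM in knockout libraries, so wild-type replicate 2 alone stood apart. Summed neuron markers were at 206.6 and 432.1 FPKM in wild-type and 176.0 and 254.3 FPKM in knockout libraries, so replicate 3 was above replicate 2 in both genotypes; 2 of 11 tested neuron markers passed as higher and none as lower, and 0 of 12 muscle markers passed. Summed markers of myelinating Schwann cells were at 7197 and 4021 FPKM in wild-type and 540.4 and 901.3 FPKM in knockout libraries, and all 10 passed as lower. In RNA from a whole organ, fewer cells of a type and less RNA per cell cannot be told apart.

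Of the 73 members with a value, 46 averaged 0.5 FPKM or more and were tested. The highest was Kcnk1, a weakly conducting leak channel, at 45.76 and 53.15 FPKM in wild-type and 41.56 and 42.15 FPKM in knockout libraries. It was followed by Kcne4, a small subunit that damps Kcnq1 channels, with a mean of 21.5 FPKM, and Kcnk3 (14.84), Kcnn2 (12.25) and Kcna1 (10.7) were also above 10 FPKM. Kcnk1 stood above every other member in each of the 4 libraries. Kcnk3 lay above Kcnn2 in each library, though by as little as 11.54 against 11.47 FPKM in knockout replicate 2, and their ranges over the libraries overlapped. Kcnk2, Kcnab2, Kcnh2 and Kcnmb4 had means of 8.442 to 5.425 FPKM. Between 31 and 38 members lay above 1 FPKM in a library. The class of highest summed FPKM was the tandem-pore one in every library (82.6 and 89.8 in the wild type, 63.8 and 64.4 in the knockout), and Kcnk1 alone made up most of it.

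**Figure D1:**
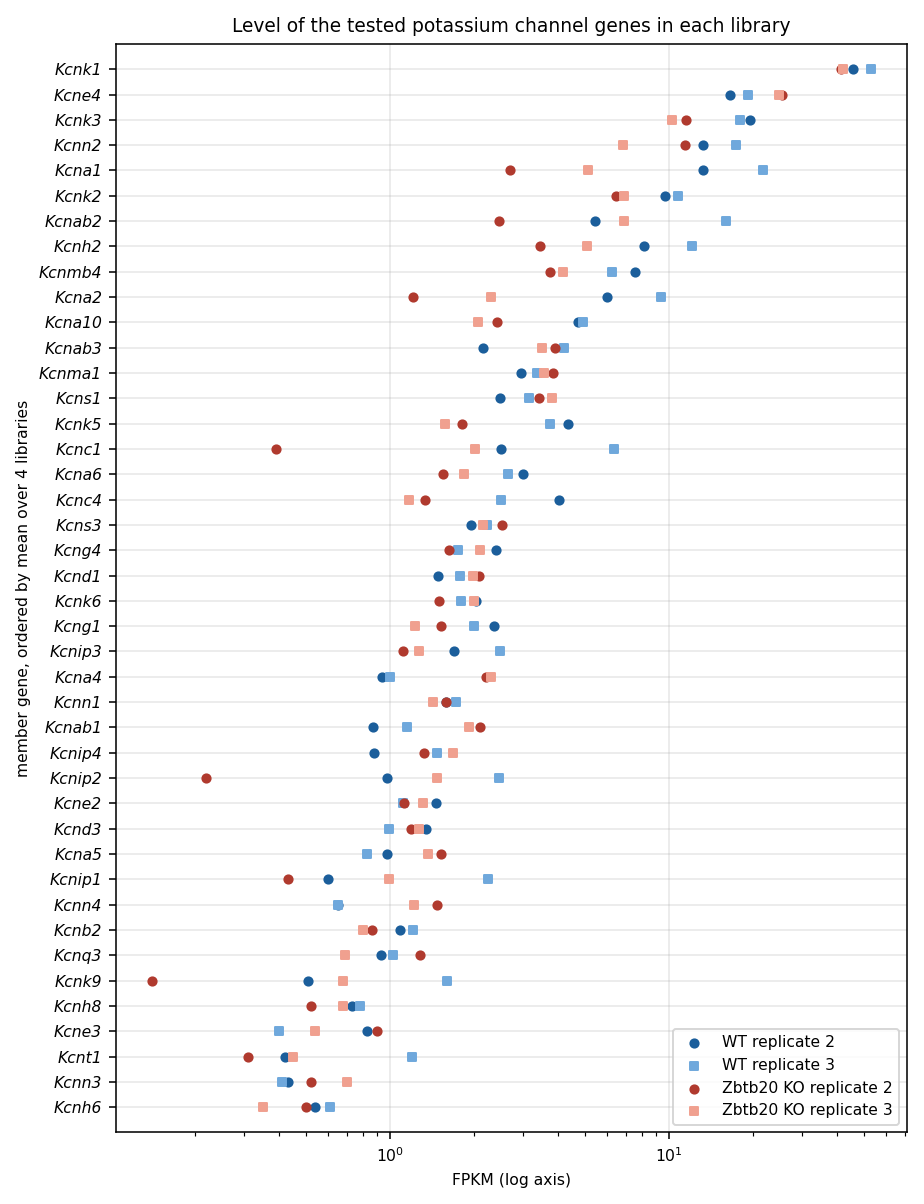
FPKM of 42 of the tested members (log axis) in each of the 4 libraries, ordered by their mean; blue points are wild type and red points Zbtb20 knockout, circles replicate 2 and squares replicate 3. Kcnk1 lies furthest right in every library, and for Kcna1 and Kcna2 both red points lie left of both blue points.

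Between the genotypes 7 of the 46 tested members passed an adjusted p of 0.05 (limma), or 15.2%, where 4.43% of all 13966 tested genes did. Lower in the knockout were 6 (13.0%; 2.04% of all genes), namely the voltage-gated Kcna1, Kcna2 and Kcna10 and the tandem-pore Kcnk2, Kcnk3 and Kcnk5. Higher was 1 (2.17%; 2.38% of all genes), Kcna4. Over all genes the calls were 333 higher and 285 lower, and 243 higher and 355 lower after each library was rescaled by its median of ratios; among members that rescaling gave 1 higher and 7 lower. The median log2 fold change was -0.23 over the tested members and 0.06 over all tested genes. Both knockout libraries lay below both wild-type libraries in 19 members (41.3%; 17.1% of all genes) and above them in 9 (19.6%; 37.9% of all genes). At an unadjusted p under 0.05 there were 16 lower and 5 higher members, beside 7.74% and 14.3% of all genes.

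**Figure D2:**
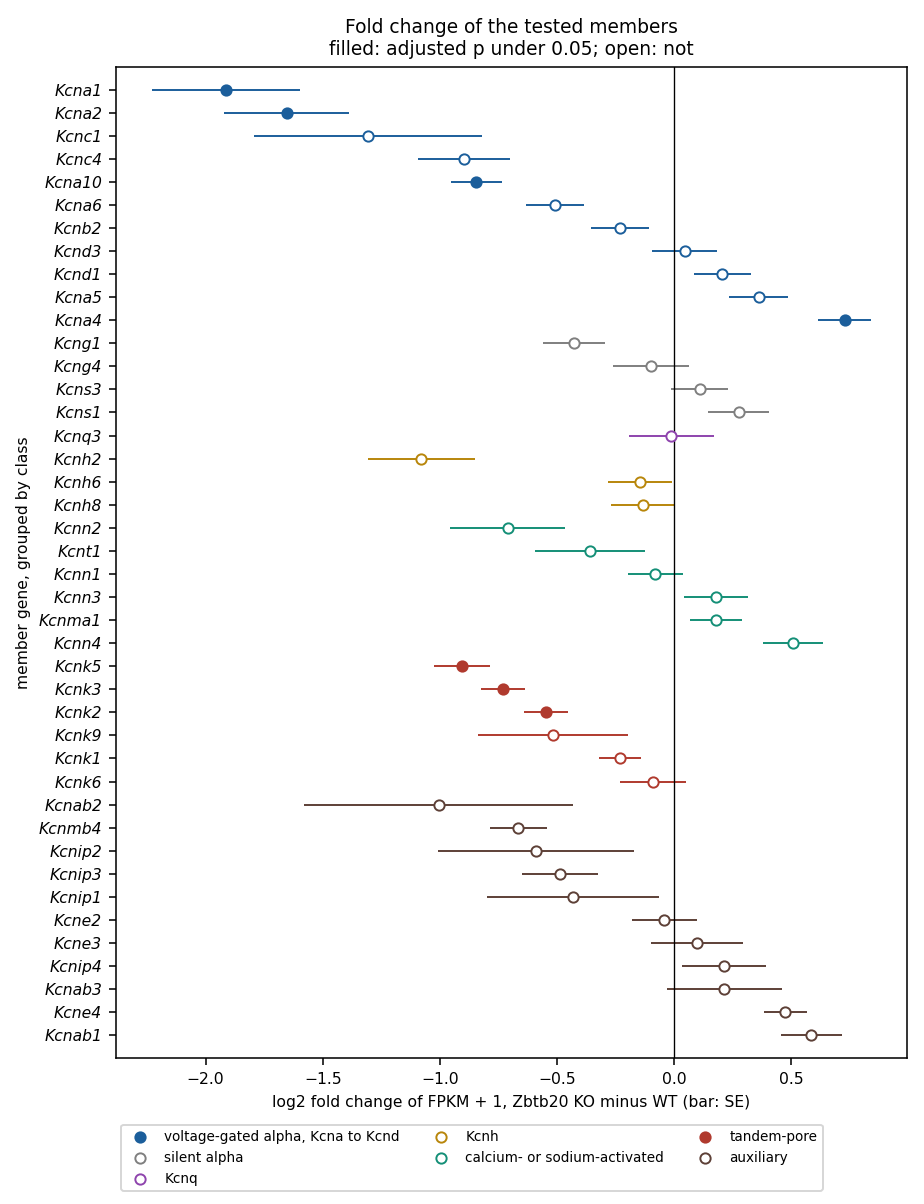
Log2 fold change of FPKM + 1, knockout minus wild type, for 42 of the tested members grouped by class; bars are the SE and filled points passed an adjusted p of 0.05. Filled points left of 0 are Kcna1, Kcna2, Kcna10, Kcnk5, Kcnk3 and Kcnk2, and Kcna4 is the 1 filled point right of 0; all 6 tandem-pore members lie left of 0.

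The pore subunits Kcna1 and Kcna2, which assemble with each other in the axon membrane under the myelin, had the 2 largest log2 fold changes of the tested members. Kcna1 was at 13.25 and 21.68 FPKM in wild-type replicates 2 and 3 and at 2.70 and 5.15 FPKM in knockout replicates 2 and 3. The groups did not overlap, and the lowest wild-type library stood above the highest knockout library. The wild-type mean was 4.45 times that of the knockout, and Kcna1 fell by 1.91 ± 0.32 on the log2(FPKM + 1) scale (SE, n = 2 per group; adjusted p = 0.0412, limma). Kcna2 was at 5.98 and 9.38 FPKM in wild-type and 1.21 and 2.31 FPKM in knockout libraries. It had the same order of libraries as Kcna1, with a ratio of means of 4.36 and a fall of 1.65 ± 0.27 (adjusted p = 0.039). In both genes replicate 3 was the higher library of each genotype, as it was for the neuron markers. The summed Schwann cell markers were lower in both knockout libraries. Their higher library was replicate 2 in the wild type (7197 and 4021 FPKM) and replicate 3 in the knockout (540.4 and 901.3 FPKM). The part of neurons or Schwann cells in the fall of Kcna1 and Kcna2 was not tested.

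Kcna10, a voltage-gated subunit of hair cells that binds cyclic nucleotides, was at 4.71 and 4.93 FPKM in wild-type and 2.42 and 2.07 FPKM in knockout libraries. The libraries of each genotype lay close together and the groups did not overlap. Kcna10 fell by 0.84 ± 0.11 (adjusted p = 0.023, limma; ratio of means 2.15). Of the hair cell markers 0 of 10 passed, but all 10 had negative log2 fold changes, where 36.7% of all tested genes did. They ran from -0.63 (Otof) to -0.11 (Espn), with a median of -0.26. The markers summed to 244.9 and 225.4 FPKM in wild-type and 200.3 and 208.5 FPKM in knockout libraries. Most of each sum was Ocm. Kcna4, which gives a fast inactivating current, was the 1 member called higher, at 0.94 and 1.0 FPKM in wild-type and 2.21 and 2.31 FPKM in knockout libraries. Each genotype was tight and the groups were apart, with a rise of 0.73 ± 0.11 and a knockout mean 2.33 times that of the wild type (adjusted p = 0.0353). Its wild-type level is low, and the pseudocount of 1 understates its change.

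Several Kcna genes are neighbours in the genome (GRCm38). On chromosome 3 Kcna3, Kcna2 and Kcna10 follow each other with gaps of 63.1 and 68.1 kb, and Kcnc4 lies 242.6 kb further on. Kcna2 and Kcna10 fell, whereas Kcna3 was at 0.20, 0.08, 0.20 and 0.13 FPKM in wild-type replicates 2 and 3 and knockout replicates 2 and 3, below the level for testing. On chromosome 6 Kcna5, Kcna1 and Kcna6 follow each other with gaps of 105.0 and 61.9 kb. Kcna1 fell, while Kcna5 was at 0.98 and 0.83 FPKM in wild-type and 1.52 and 1.37 FPKM in knockout libraries. The knockout libraries were the higher ones for Kcna5, with a log2 fold change of 0.36 ± 0.12 that did not pass (adjusted p = 0.185, limma). Kcna6, another axonal subunit, was at 3.01 and 2.65 FPKM in wild-type and 1.55 and 1.84 FPKM in knockout libraries, and did not pass either (-0.51 ± 0.12, adjusted p = 0.096). Of the Kcna6 exon bases 39.6% lie within exons on the other strand, with the largest share in Gm26673. The sources used here do not state whether counting used strand.

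The RefSeq promoters (GRCm38.p6) of Kcna2, Kcna10 and Kcna4 are shown because the first pair are neighbours that both fell, while Kcna4 rose. Each covers 250 bases before to 50 after an annotated start, and capitals mark GGGCGG, the core of a GC box, on either strand.
Kcna2 at chr3:107101317-107101616, plus strand: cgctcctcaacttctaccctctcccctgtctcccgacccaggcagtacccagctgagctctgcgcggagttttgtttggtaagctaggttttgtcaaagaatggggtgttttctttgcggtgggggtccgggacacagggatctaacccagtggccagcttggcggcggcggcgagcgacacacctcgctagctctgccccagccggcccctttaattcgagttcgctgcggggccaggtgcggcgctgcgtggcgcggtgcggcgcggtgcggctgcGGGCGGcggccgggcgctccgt
Kcna10 at chr3:107182893-107183192, plus strand: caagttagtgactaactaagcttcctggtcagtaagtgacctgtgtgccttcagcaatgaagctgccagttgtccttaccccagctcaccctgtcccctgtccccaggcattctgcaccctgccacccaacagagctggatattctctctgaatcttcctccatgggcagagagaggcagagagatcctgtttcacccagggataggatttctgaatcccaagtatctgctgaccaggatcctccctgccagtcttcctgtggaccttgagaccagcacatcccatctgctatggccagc
Kcna4 at chr2:107290339-107290638, plus strand: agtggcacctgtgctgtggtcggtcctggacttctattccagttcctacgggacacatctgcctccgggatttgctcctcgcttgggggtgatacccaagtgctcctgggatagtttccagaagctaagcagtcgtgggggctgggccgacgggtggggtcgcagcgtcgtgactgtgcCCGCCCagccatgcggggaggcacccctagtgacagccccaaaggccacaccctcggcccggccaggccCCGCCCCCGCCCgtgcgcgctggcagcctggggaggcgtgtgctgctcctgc
The neighbours Kcna2 and Kcna10, whose RNA fell together, differed in base composition, with 31 and 0 CG dinucleotides against a median of 7 over the 32851 promoters of the table, and Kcna4 had 20. On either strand GGGCGG was found 1 time in Kcna2, 3 times in Kcna4 and 0 times in Kcna10, and 35.7% of all promoters held it, as did 48.7% of the 76 promoters of the 55 members with an entry. The letters TATAAA on either strand were in 1.3% of the member promoters and in 13.6% of all promoters. A match describes the sequence and is not a site.

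The tandem-pore leak channels were lower in the knockout in all 6 tested members by the sign of the fold change, where 36.7% of all tested genes had a negative sign, and 3 passed as lower. Kcnk3, an acid-sensitive leak channel, was at 19.53 and 17.98 FPKM in wild-type and 11.54 and 10.29 FPKM in knockout libraries. The groups were well apart and Kcnk3 fell by 0.73 ± 0.09 (SE, n = 2 per group; adjusted p = 0.0222, limma; ratio of means 1.72). Kcnk5, which opens in alkaline surroundings, was at 4.35 and 3.76 FPKM in wild-type and 1.81 and 1.58 FPKM in knockout libraries. On the log2(FPKM + 1) scale Kcnk5 had the widest fall of the tested class members, 0.91 ± 0.12 (adjusted p = 0.024, limma). Its ratio of means was 2.39, beside 2.57 for Kcnk9, which had a lower level. Kcnk2, which opens on membrane stretch, was at 9.67 and 10.76 FPKM in wild-type and 6.45 and 6.89 FPKM in knockout libraries. Its libraries did not overlap between the genotypes, and it fell by 0.55 ± 0.10 (adjusted p = 0.0465, limma). Of the Kcnk2 exon bases 12.2% lie within exons on the other strand, with the largest share in A430027H14Rik.

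Kcnk1, the member of highest level, had both knockout libraries below both wild-type libraries, but its difference of -0.23 ± 0.09 did not pass (adjusted p = 0.226, limma). Kcnk6 overlapped between the genotypes, with a log2 fold change of -0.09 ± 0.14. Kcnk9, an acid-sensitive channel of neurons, was at 0.51 and 1.60 FPKM in wild-type and 0.14 and 0.68 FPKM in knockout libraries, and its libraries overlapped. For the class, the median log2 fold change was -0.53. The 3 called Kcnk genes differed little within a genotype, with replicate 3 at 0.864 to 1.11 times replicate 2.

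Removing 1 library ended some of these calls. Without wild-type replicate 2, the library with the highest muscle markers, Kcna1, Kcna2, Kcna10, Kcnk3 and Kcnk5 passed (adjusted p = 0.0211, 0.0207, 0.0396, 0.0469 and 0.0462, limma), and Kcna4 and Kcnk2 did not (0.0632 and 0.0567). Without wild-type replicate 3, Kcna10, Kcnk3 and Kcnk5 passed (0.0496, 0.0329 and 0.0279), and Kcna1, Kcna2, Kcna4 and Kcnk2 did not (0.0644, 0.0616, 0.0569 and 0.11). Without knockout replicate 2 the 7 genes had adjusted p from 0.172 to 0.345, and without knockout replicate 3 from 0.159 to 0.268, and 1 gene of the whole table passed in either case. All 7 calls also ended without a filter on low values, and those of Kcna1, Kcna2 and Kcnk2 without an intensity trend (adjusted p = 0.0566, 0.0523 and 0.0566). The sign of all 7 fold changes was kept with each library left out. Across these 4 settings Kcna1 lay between -2.28 and -1.55, Kcnk5 between -0.99 and -0.82 and Kcna4 between 0.70 and 0.75.

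**Figure D3:**
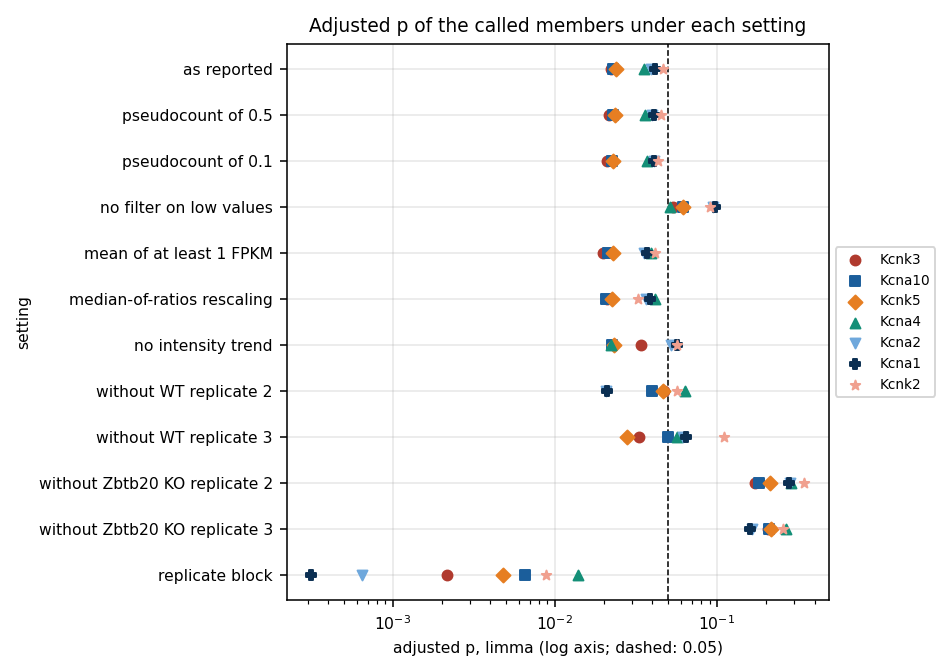
Adjusted p (limma, log axis) of the 7 called members as reported and under each of 11 other settings; the dashed line is 0.05. All 7 points lie right of the line without a filter on low values and without either knockout library, and left of it under the pseudocounts of 0.5 and 0.1, the stricter filter and the rescaling.

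Of the Kcnb, Kcnc and Kcnd pore subunits none of the 7 tested members passed (limma), where 4.43% of all genes did. Of these 7 members, 3 were lower at an unadjusted p under 0.05, as were 7.74% of all genes. Kcnc1, of the family that lets neurons fire fast, was at 2.50 and 6.34 FPKM in wild-type and 0.39 and 2.02 FPKM in knockout libraries. Replicate 3 exceeded replicate 2 in both genotypes, and the log2 fold change of -1.31 ± 0.49 did not pass (adjusted p = 0.209, limma). It was -0.75 without knockout replicate 2 and -0.77 without wild-type replicate 3. The value was -1.87 without knockout replicate 3 and -1.84 without wild-type replicate 2. Kcnc4, which skeletal muscle also expresses, was at 4.04 and 2.50 FPKM in wild-type and 1.34 and 1.17 FPKM in knockout libraries. The higher wild-type library is the one with the highest muscle markers. The log2 fold change was -0.90 ± 0.20 (adjusted p = 0.0768); it was -0.64 without wild-type replicate 2 (adjusted p = 0.0865) and -1.16 without wild-type replicate 3 (adjusted p = 0.0196). Kcnb2, a slow delayed rectifier, had a log2 fold change of -0.23 ± 0.12, and Kcnd1 and Kcnd3, which give transient currents, were at 0.21 ± 0.12 and 0.04 ± 0.14. In the silent class 0 of 4 tested members passed (limma), and 1 was lower at an unadjusted p under 0.05, beside 7.74% of all genes. Kcng1 was at -0.43 ± 0.13 and Kcns1 at 0.28 ± 0.13.

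Kcnq3, a subunit of the brake current of neurons, was at 0.93 and 1.03 FPKM in wild-type and 1.28 and 0.69 FPKM in knockout libraries. Its groups overlapped, and the difference of -0.01 ± 0.18 on the log2 scale did not pass (adjusted p = 0.976, limma). Of the Kcnh family, Kcnh2, a channel that repolarises heart and neurons, was at 8.17 and 12.14 FPKM in wild-type and 3.44 and 5.08 FPKM in knockout libraries. Both knockout libraries lay below both wild-type libraries, and the difference of -1.08 ± 0.23 did not pass (adjusted p = 0.0707). With 1 library left out it ran from -1.34 (without wild-type replicate 2) to -0.82 (without wild-type replicate 3). Replicate 3 of Kcnh2 was 1.49 times replicate 2 in the wild type and 1.48 times in the knockout.

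Among calcium-activated channels, Kcnma1, the pore of the large-conductance channel of mature inner hair cells, was at 2.95 and 3.37 FPKM in wild-type and 3.84 and 3.57 FPKM in knockout libraries. The knockout libraries were slightly above the wild type, with a log2 fold change of 0.18 ± 0.11 that did not pass (adjusted p = 0.388, limma). Its neuronal auxiliary subunit Kcnmb4 was at 7.54 and 6.24 FPKM in wild-type and 3.75 and 4.17 FPKM in knockout libraries. The groups did not overlap and the difference of -0.67 ± 0.12 lay at the threshold (adjusted p = 0.0506); it passed under several settings, such as a pseudocount of 0.5 (0.0488), rescaling (0.0432) and without wild-type replicate 3 (0.0424), and did not pass without a filter (0.104) or without wild-type replicate 2 (0.0911). Of the Kcnmb4 exon bases 31.5% lie within exons on the other strand, with the largest share in Kcnmb4os2. Kcnn2, through which efferent fibres inhibit outer hair cells, was at 13.26 and 17.40 FPKM in wild-type and 11.47 and 6.86 FPKM in knockout libraries. The knockout libraries were lower but far apart, and -0.71 ± 0.25 did not pass (adjusted p = 0.185). The value was -0.38 without knockout replicate 3 and -1.04 without knockout replicate 2. Kcnn4, a channel of epithelia and blood cells, was at 0.65 FPKM in each wild-type library and reached 1.48 and 1.22 FPKM in knockout libraries, also without passing (0.51 ± 0.13, adjusted p = 0.107). Kcnn3, a relative of Kcnn2, was at 0.18 ± 0.14.

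Among auxiliary subunits limma called 0 of 11 tested members, where 4.43% of all genes passed. At an unadjusted p under 0.05 (limma), 2 were higher, Kcne4 and Kcnab1, and 2 lower, Kcnmb4 and Kcnip3. Over all genes 14.3% were higher and 7.74% lower at that level. Kcne4 was at 16.56 and 19.16 FPKM in wild-type and 25.42 and 24.84 FPKM in knockout libraries. The groups did not overlap, and the difference of 0.47 ± 0.09 did not pass (adjusted p = 0.0591, limma). Nor did it pass after rescaling (0.0884) or without an intensity trend (0.0893). With 1 library left out it ran from 0.37 (without wild-type replicate 2) to 0.57 (without wild-type replicate 3). The beta subunits of Kcna channels had fold changes of different sign, none past the threshold. Kcnab1 was at 0.87 and 1.15 FPKM in wild-type and 2.10 and 1.92 FPKM in knockout libraries (0.59 ± 0.13, adjusted p = 0.0813). Kcnab2, the beta subunit of axonal Kcna1 and Kcna2, was at 5.43 and 16.08 FPKM in wild-type and 2.46 and 6.88 FPKM in knockout libraries. Its libraries overlapped, since knockout replicate 3 stood above wild-type replicate 2, and the difference of -1.005 ± 0.573 on the log2 scale did not pass (adjusted p = 0.359). It ran from -1.71 without wild-type replicate 2 to -0.30 without wild-type replicate 3. Among the calcium-binding partners of Kcnd channels, Kcnip1, Kcnip2 and Kcnip3 had log2 fold changes of -0.43 ± 0.37, -0.59 ± 0.42 and -0.49 ± 0.16, and Kcnip4 0.21 ± 0.18. Kcnab3 was at 0.21 ± 0.24, and Kcne2 and Kcne3 were at -0.04 ± 0.14 and 0.10 ± 0.20.

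Some members differed between the libraries of a genotype in the same direction. Replicate 3 was at least 1.5 times replicate 2 in both genotypes for 8 of 46 members (17.4%), where 1.62% of all tested genes met this. Among them were Kcna1, Kcna2, Kcnab2, Kcnc1, Kcnip1, Kcnip2 and Kcnk9. The opposite held for 1 member, Kcne3 (2.17%; 0.831% of all genes). These 7 are genes that neurons express, and the neuron markers were 2.09 times as high in replicate 3 of the wild type and 1.44 times in replicate 3 of the knockout. In the knockout the widest ratios were those of Kcnip2, at 2.52 in the wild type and 6.73 in the knockout, and of Kcnc1, at 2.54 and 5.18. A list of brain glia and central neuron markers had ratios of 2.37 and 2.59, but its sum was mostly Slc17a7, a glutamate transporter of central neurons that spiral ganglion neurons also express, at 33.66 FPKM in wild-type replicate 3. The myelin gene Mog of brain oligodendrocytes was at most 0.03 FPKM in any library. Whether neuron content accounts for the spread of these members was not tested.

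**Figure D4:**
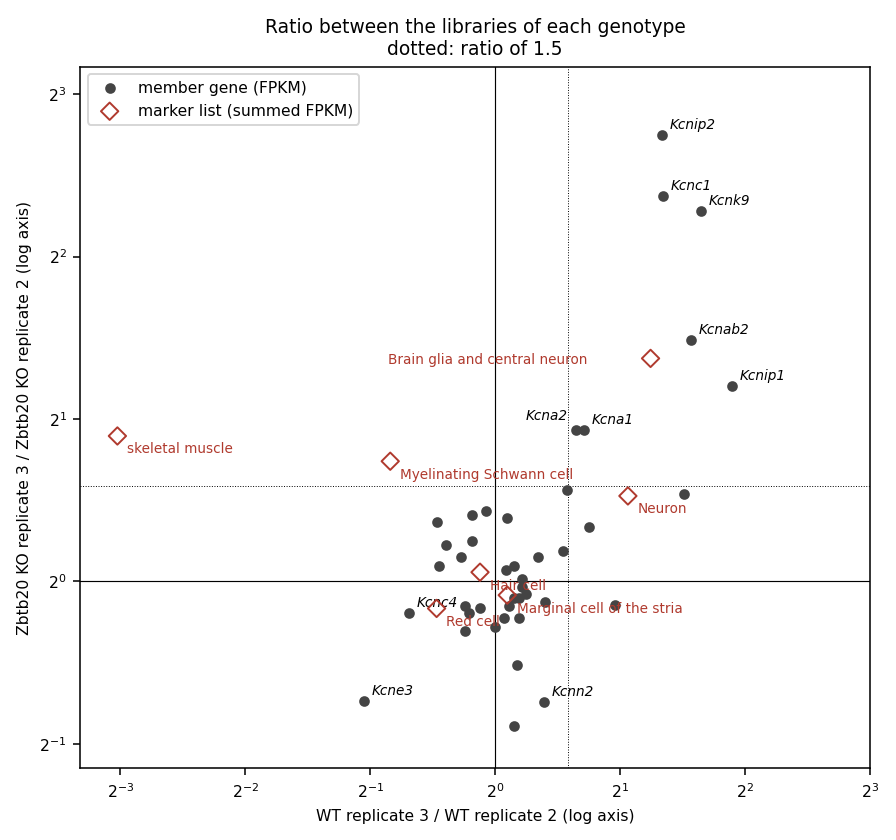
Ratio of replicate 3 to replicate 2 in the wild type (horizontal) and in the knockout (vertical), both on log axes, for 42 of the tested members (dots) and for the summed FPKM of the marker lists (diamonds); dotted lines mark 1.5. The 7 labelled members at upper right lie beyond both dotted lines, the neuron list lies at 2.09 and 1.44, and the muscle list lies far left, at 0.123 in the wild type.

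The 27 members with a value below 0.5 FPKM on average were not part of the test. Without a filter on low values they were fitted with all other genes, and 0 of 73 members then passed (lowest adjusted p 0.0511, limma), where 1.51% of all genes did. At an unadjusted p under 0.05 there were 23 members (31.5%), beside 19.7% of all genes. Of the low members, Kcnh1 was at 0.26 and 0.34 FPKM in wild-type and 0.06 and 0.09 FPKM in knockout libraries. Kcnk18, a leak channel of sensory neurons, was at 0.07 and 0.09 FPKM in wild-type and at 0.33 FPKM in both knockout libraries. In both genes the groups did not overlap. The values of the lower group, the knockout for Kcnh1 and the wild type for Kcnk18, correspond to few fragments. Kcnd2 was at 0.13 and 0.20 FPKM and 0.32 and 0.46 FPKM, and Kcnq5 at 0.18 and 0.17 FPKM and 0.09 and 0.11 FPKM. Kcna7, a subunit of skeletal muscle, was at 0.63 FPKM in wild-type replicate 2 and between 0.12 and 0.21 FPKM in the other 3 libraries. Muscle markers were highest in that same library. Kcnmb1 and Kcnmb2 stayed at 0.18 to 0.64 FPKM, and 7 members were listed at 0 in at least 1 library.

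Genes whose products work with these channels were counted as a list of 31, of which 30 were tested. The list was chosen with earlier results of these data known and holds Kcnq1 and Kcne1, which the member rule left out. Its counts are therefore descriptive and do not test the list. Passing were 3 higher and 1 lower (limma), beside 2.38% and 2.04% of all genes, with a median log2 fold change of -0.07. Lrrc26, the auxiliary subunit that lets the Kcnma1 channel open without calcium, was at 1.71 and 1.03 FPKM in wild-type and 6.29 and 6.28 FPKM in knockout libraries. Both knockout libraries stood far above the wild type, and Lrrc26 rose by 1.64 ± 0.16 (SE, n = 2 per group; adjusted p = 0.012). Hcn2, a cation channel that opens on hyperpolarisation, was at 11.22 and 13.03 FPKM in wild-type and 5.50 and 6.76 FPKM in knockout libraries, and fell by 0.88 ± 0.13 (adjusted p = 0.0297). Its partner Pex5l was at 4.17 and 5.16 FPKM and 1.98 and 2.61 FPKM and did not pass (adjusted p = 0.0581). Cntnap2, which holds Kcna1 and Kcna2 beside the node, was at 3.13 and 4.46 FPKM in wild-type and 5.71 and 6.93 FPKM in knockout libraries. Its order of the genotypes was opposite to that of both channels, and it did not pass (0.62 ± 0.17, adjusted p = 0.121, limma). Cntn2 was at 0.49 and 1.27 FPKM in wild-type and 0.47 and 0.61 FPKM in knockout libraries, with overlap (-0.26 ± 0.23, adjusted p = 0.542, limma). Adam23, at 4.53 and 9.31 FPKM and 2.0 and 4.34 FPKM, was lower without overlap and did not pass (-0.92 ± 0.39, adjusted p = 0.248, limma). Of the 30 tested, 12 had positive and 18 negative log2 fold changes. The other genes that passed as higher were Kcnq1 and Kcne1, which form the channel that secretes potassium from marginal cells of the stria. Kcnq1 rose by 0.85 ± 0.10 (adjusted p = 0.0194, limma), from a mean of 13.03 to 24.33 FPKM, and Kcne1 by 1.56 ± 0.09 (adjusted p = 0.00448), from 7.995 to 25.48 FPKM. Both are on the marginal cell list, of which 5 of 8 passed as higher, with summed FPKM of 259.5 and 278.8 beside 351.7 and 331.6; the part of cell number in these rises was not tested.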

How the data were processed

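Cochlear RNA at postnatal day 10 was measured in 2 wild-type and 2 Zbtb20 knockout libraries, grouped by sample title. For every library the authors provided a table of FPKM, per the file headers. HISAT2 2.0.4, Bowtie2 2.2.5, RSEM 1.2.12 and mm10 are named without roles, per the submitters' processing notes; use of strand is not stated there or in the labels. A repeated column (4 in all) was not used.

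Of 20777 rows, 17816 had values. Genes averaging 0.5 FPKM or more (13966) were fitted with limma 3.58.1 (R 4.3.3) on log2(FPKM + 1), with an intensity trend, two-sided, and Benjamini-Hochberg adjustment over all of them (threshold 0.05). This was tested on simulated data. Fold changes are knockout minus wild type; errors are SE. The pseudocount understates changes of low genes.

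Depth was estimated from low FPKM values of genes with 1 transcript, where 70.3% to 72.3% of 498 to 538 values per library came out as whole fragments; the share is too low for count tests. No intervals are given.

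Members and lists were chosen with earlier results of these data known. Named are called members, the 10 largest log2 fold changes in each direction, the 10 highest levels and members with known cochlear roles; Kcnk6, Kcnk9, Kcng1, Kcnip2, Kcnip3, Kcna3, Kcna7, Kcnh1 and Kcnk18 fall outside that rule and were named after their values were seen. Of the list of genes that work with the channels, Pex5l, Cntnap2, Cntn2 and Adam23 did not pass and were named after their values were seen. Positions and exon overlap come from GENCODE M21 (GRCm38). Alternatives were other pseudocounts, filters, scaling, no trend, each library left out and a replicate block. A few members were fitted and counted but are not reported here.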

Additional observations from a re-analysis of the deposited data

How the results depend on the processing

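Each group held 2 libraries. Over all genes 618 were called, against 266 without a filter on low values and 2353 with the replicate block, and 1 to 580 when 1 library was left out. Members called lower were 6, against 0 without a filter, 3 without an intensity trend, 15 with the replicate block and 0 to 6 with 1 library left out. Members called higher were 1, against 0 without a filter, 3 with the replicate block and 0 to 1 with 1 library left out. The cause of these shifts was not tested, except that leaving out a library leaves 1 sample in a group, which is then assumed to vary like the other. The replicate numbers are not known to pair the libraries. Deviations of same-numbered libraries correlated at 0.403 over 13966 genes, and the block called 18 members, among them the 7 reported and, with limma's adjusted p in brackets, Kcnh2 (0.00143), Kcnc1 (0.00184), Kcnab2 (0.00257), Kcnc4 (0.0123), Kcne4 (0.013), Kcnmb4 (0.0165), Kcnab1 (0.0372) and Kcna6 (0.0451). Of 35 named and tested members over 11 settings, 323 values kept sign and side of the threshold, 30 lost their call and 18 gained one. With 1 library left out, 11 of them kept their sign but moved by over 1.5 times, none of them called. Signs changed only when a library was left out, and only in members that were not called: log2 fold changes then ran from -0.15 to 0.57 for Kcnab3, -0.076 to 0.16 for Kcnd3, -0.15 to 0.069 for Kcne2, -0.10 to 0.29 for Kcne3, -0.94 to 0.076 for Kcnip1 and -0.23 to 0.20 for Kcnq3. FPKM give no counts, so low members cannot be given counting errors.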
